A study of Homo sapiens with 34 samples.

Results

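RWPE is an established line of non-tumorigenic human prostate epithelium, and its response to a medium with androgen on a mineral surface is described here across genes. The comparison uses 5 of the 34 RNA-seq libraries of the series, chosen by line, surface and medium as the labels give them. All 5 came from cells cultured for 4 days on plates coated with ACP (amorphous calcium phosphate, a calcium mineral surface). The 2 control libraries came from RWPE in its own growth medium, a serum-free keratinocyte medium with epidermal growth factor (EGF) and bovine pituitary extract. The 3 androgen libraries came from RWPE in medium with charcoal-dextran-stripped fetal bovine serum and an androgen labelled at 100 mM. Titles name that androgen DHT and the treatment labels name it testosterone, so it is called androgen here. No RWPE library in stripped serum without androgen was analysed here, so that the base medium, EGF, pituitary extract, serum and androgen cannot be told apart. RWPE is 1 line, and nothing in the labels says whether the replicates of a group were separate cultures. The test took its spread from these 5 libraries and from 2 RWPE libraries on plastic in control medium, which entered neither mean. The p-values thus measure only the spread between replicate libraries, which may be technical.

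Prostate epithelium has a basal layer, marked by keratins 5 and 14 and the transcription factor TP63, and a luminal layer that responds to androgen and secretes products such as KLK3. Testosterone and DHT are known to activate genes such as KLK3, TMPRSS2 and FKBP5 in luminal cells. EGF receptor signalling keeps basal cells growing in serum-free medium, while serum and calcium are known to move cultured basal keratinocytes towards squamous differentiation. Interferon-stimulated genes are switched on through a complex that holds STAT2 and IRF9 after interferon or foreign nucleic acid is sensed, and many epithelial lines express some of them without added interferon.

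Androgen medium changed 2730 of 14293 tested genes in RWPE on ACP (19.1%), of which 1579 were higher (11.0%) and 1151 lower (8.05%) than in control medium, at an adjusted p below 0.05 in edgeR's quasi-likelihood test with Benjamini-Hochberg adjustment, and 5291 (37.0%) had an unadjusted p below 0.05. Chemokine genes, among them CXCL2, CXCL3 and CCL20, were among the 12 largest rises. Interferon-stimulated genes, among them MX1, MX2, IFI27 and OAS2, were among the 12 largest falls, and keratin and other squamous genes fell as well. KLK3, KLK2, TMPRSS2 and FKBP5, known androgen targets of luminal cells, did not pass the test. These calls came with 2 measured limits that touch every group described. Leaving out either control library left 0 calls with edgeR, with 2413 genes at an unadjusted p below 0.05 without control library 1 and 3963 without control library 2. Removing a trend with GC content and transcript length left 2 calls (0.0140%), with 3623 genes (25.3%) at an unadjusted p below 0.05.

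The GC trend ran through the whole table. Among genes in the lowest quintile of GC content (30.9% to 42.7% GC) 30.3% rose and 0.394% fell, whereas in the highest quintile (59.2% to 76.0% GC) 0.323% rose and 21.9% fell. The median GC content was 42.2% for genes that rose, 59.7% for genes that fell and 50.3% for all tested genes, and across genes Spearman's rho of the log2 change with GC content was -0.53 and with length -0.19 (13951 genes, which share the same 5 libraries and are not independent). The 2 control libraries differed by GC content as well, lying 0.12 log2 to either side of their own mean in the lowest quintile. The part of this trend in the results was not tested, and the groups below are given with their medians after it was removed.

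**Figure D1:**
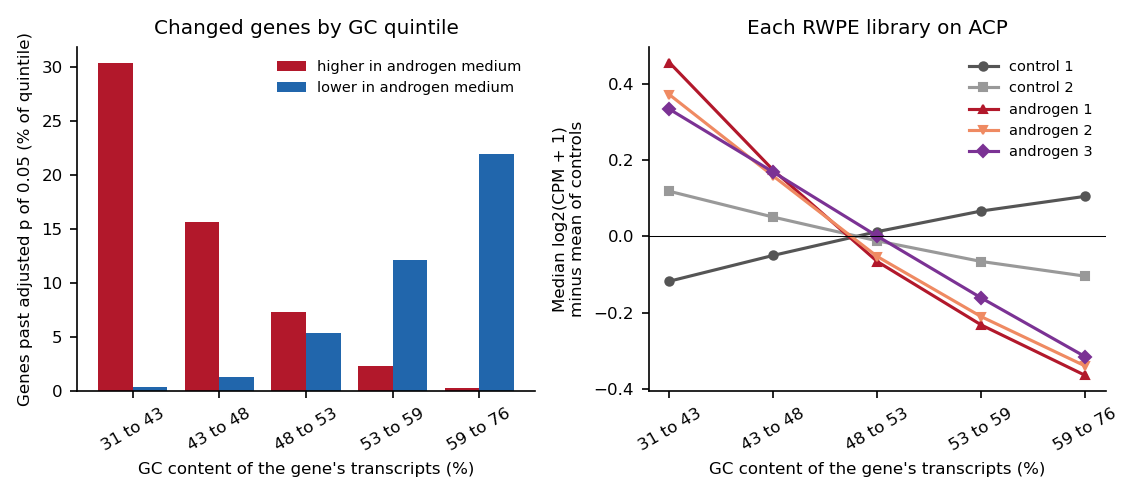
Left, percent of the genes in each quintile of GC content that were higher (red) or lower (blue) in androgen medium at an adjusted p below 0.05. Right, the median log2(CPM + 1) of each quintile in each of the 5 libraries, minus the mean of both controls: all 3 androgen libraries run from above 0 at low GC to below 0 at high GC. The 2 controls mirror each other because their mean is the 0 line.

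Total counts were 31.5 M and 20.6 M in the control libraries and 19.7 M, 20.6 M and 23.5 M in the androgen libraries. Androgen libraries 1 and 2 resembled each other (Pearson r of log2 CPM 0.987), and library 3 was farther from both (0.977 and 0.981), while the controls correlated at 0.993. Library 3 lay closest to the controls of the 3 androgen libraries for 65.5% of the 2730 called genes, and without it 6102 genes passed the test, while without androgen library 1 it was 1066. The labelled cell type was checked on 5 basal markers, whose summed level was 15330 and 12627 CPM (counts per M counts, scaled by the trimmed mean of M-values) in the controls and 3456, 10878 and 4046 CPM in the androgen libraries; fewer cells of a type and less RNA per cell cannot be told apart in such bulk samples. Markers of other cells were low by comparison: 8 fibroblast markers summed to between 14.1 and 28.7 CPM 8 luminal cancer markers to between 31.2 and 48.3 CPM and 7 lymphoid and myeloid markers to between 72.8 and 86.1 CPM. The 8 liver markers summed to between 0.883 and 2.92 CPM, with FGG, FGB, APOA1 and APOA2 at 0 reads in all 5 libraries.

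Interferon-stimulated genes fell in androgen medium: 17 of 39 tested members of the list fell and 0 rose, beside 8.05% and 11.0% of all genes, and the median log2 change of the list was -0.88 beside -0.02 for all genes. MX1, a GTPase that blocks viral replication, was at 72.2 and 73.2 CPM in the control libraries and at 10.2, 28.0 and 10.7 CPM in the androgen libraries. The groups did not overlap, androgen library 2 lay nearest to the controls, and the log2 change was -2.16 ± 0.36 (SE, adjusted p = 0.0170). Its relative MX2 was at 5.13 and 5.62 CPM in control medium and 0.294, 1.61 and 0.333 CPM in androgen medium (log2 change -2.88 ± 0.52, adjusted p = 0.0170). IFI27, a small interferon-induced membrane protein, fell from 17.4 and 17.1 CPM to 2.06, 6.25 and 1.46 CPM (-2.42 ± 0.45, adjusted p = 0.0170). OAS2, which makes the 2'-5' oligoadenylates that activate RNase L, fell from 37.6 and 39.0 CPM to 4.12, 16.4 and 5.96 CPM (-2.12 ± 0.42, adjusted p = 0.0171). In each of these 4 genes the controls lay close together, and androgen library 2 was the highest of the androgen libraries. STAT2 and IRF9, signalling genes known to drive the group, are members of the list and count among its 17 falls. Both were picked after their values were seen. STAT2, which carries the response to type I interferon, had a log2 change of -0.95 ± 0.17. IRF9, the DNA-binding subunit, had one of -1.36 ± 0.28, whereas IRF1, another member, did not pass the test. An antigen-presentation member with a high level did not pass the test. B2M, the light chain of class I molecules, was at 1014 and 1126 CPM in the controls and 1394, 1676 and 987 CPM with androgen (0.34 ± 0.22, adjusted p = 0.303).

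With the GC and length trend removed, the list had a median of -0.99, and 24 of 39 members were lower at an unadjusted p below 0.05, beside 11.9% of all genes, though 0 passed the adjusted threshold (smallest adjusted p = 0.0614). The rest of this paragraph gives values without that removal. Androgen library 2 moved least, with a median deviation of -0.34 log2 from the controls beside -1.27 and -1.29 in libraries 1 and 3. Without androgen library 2, 31 members fell, and without androgen library 1, 11 did. B2M was the 1 member with a positive log2 change, which turned negative with the trend removed. The other members outside the 4 named first ran from -1.94 for CMPK2 to -0.10 for CXCL11.

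The promoters of MX1 and IFI27 (both fell) and B2M (not called) are shown because the interferon-stimulated response element is the known DNA site of the complex that holds STAT2 and IRF9. Its core letters GAAANNGAAA were searched on both strands from 250 bases before to 50 after each gene's start, in RefSeq sequences of build GRCh38.p14, and overlapping matches are shown as 1 run. Capitals mark the matches, and TTTCGGTTTC is one read from the other strand.
MX1, chr21:41420544-41420603, + strand: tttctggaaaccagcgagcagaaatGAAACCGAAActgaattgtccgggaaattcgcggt
IFI27, chr14:94110603-94110662, + strand: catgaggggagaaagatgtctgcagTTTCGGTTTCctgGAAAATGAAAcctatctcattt
B2M, chr15:44711348-44711407, + strand: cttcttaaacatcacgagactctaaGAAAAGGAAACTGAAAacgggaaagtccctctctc
These letters were in 17 of the 28 tested members of the list with a promoter in the RefSeq table (60.7%), beside 1255 of 35116 promoters of all genes (3.57%). They were in 7 of 12 members that fell and in 10 of 16 that did not pass the test, so that the letters alone did not separate the 2 sets. A match is a description of the sequence and not a measured binding site.

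**Figure D2:**
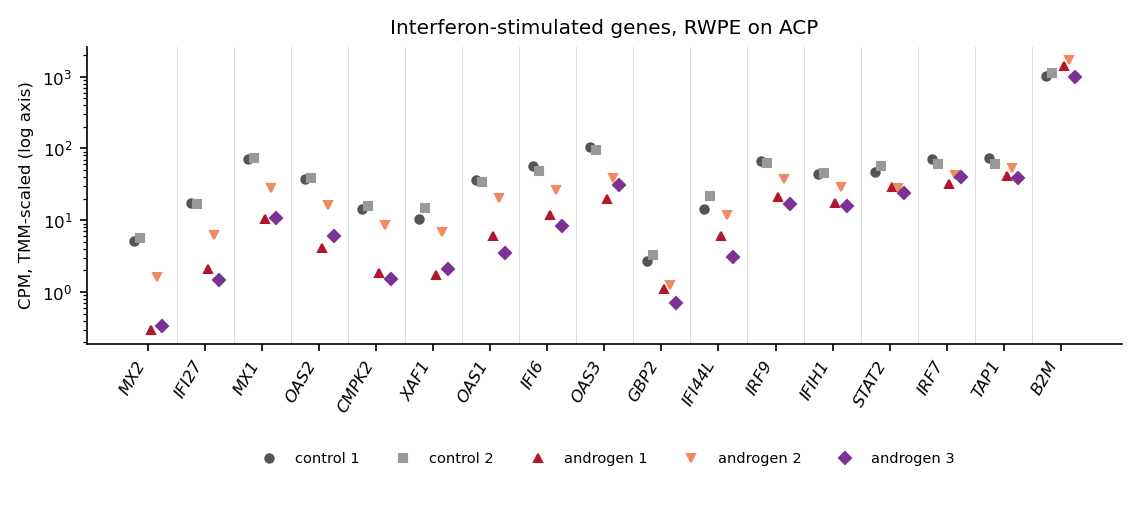
CPM (log axis) of 16 of the 17 interferon-stimulated genes that fell and of B2M, in each of the 2 control and 3 androgen libraries. Controls lie close together, androgen libraries 1 and 3 lie lowest for most genes, and androgen library 2 lies between; B2M overlaps between the media.

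Keratins and other genes of squamous differentiation fell: 15 of 47 tested members of that list fell and 0 rose, with a median log2 change of -1.18. Of 22 basal and hemidesmosome genes 9 fell and 0 rose, with a median of -0.75. Among all genes 8.05% fell and 11.0% rose. KRT5, the basal type II keratin, was at 9212 and 7590 CPM in control medium and at 2209, 6248 and 2826 CPM in androgen medium (log2 change -1.16 ± 0.36, adjusted p = 0.0463), a call that was lost when the spread came from all 34 libraries (adjusted p = 0.46). Its partner KRT14 was at 4847 and 3961 CPM against 858, 3933 and 636 CPM (-1.28 ± 0.60, adjusted p = 0.144), and although all 3 androgen libraries lay below both controls it did not pass the test, with androgen library 2 next to control library 2. Reads of KRT14, KRT16 and KRT17 could be shared with near-identical pseudogene copies, so their values are uncertain. KRT17, a keratin of stressed and appendage epithelium, fell from 3726 and 3054 CPM to 658, 2272 and 545 CPM (-1.55 ± 0.49, adjusted p = 0.0493). TP63, which sets the identity of basal epithelium, fell from 186 and 206 CPM to 83.0, 141 and 109 CPM (-0.82 ± 0.22, adjusted p = 0.0290). That call too was lost when the spread came from all 34 libraries (adjusted p = 0.095). Other basal genes moved more evenly over the androgen libraries. TRIM29, a basal-cell ubiquitin ligase, fell from 561 and 486 CPM to 158, 280 and 191 CPM (-1.32 ± 0.23, adjusted p = 0.0170). LAMB3, a chain of laminin-332 under the hemidesmosome, fell from 307 and 238 CPM to 96.6, 157 and 134 CPM (-1.08 ± 0.22, adjusted p = 0.0172), a change that was -0.54 after the GC and length trend was removed. PLEC, the linker of keratin filaments to hemidesmosomes, was lower by a similar amount (-1.11 ± 0.22), but its value was -0.09 after that removal, with a GC content of 66.8%.

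Differentiation genes of the upper squamous layers were among the lower ones. IVL encodes involucrin, a protein of the cornified envelope, and was at 5.66 and 3.74 CPM in the controls and at 0.236, 1.77 and 0.958 CPM with androgen (log2 change -2.24 ± 0.58, adjusted p = 0.0271). KLK10, a serine protease of stratified epithelium, fell from 36.7 and 26.0 CPM to 3.18, 18.2 and 3.92 CPM (-1.90 ± 0.56, adjusted p = 0.0396). CALML5, a calmodulin-like protein of differentiating keratinocytes, fell from 3.40 and 2.92 CPM to 0.883, 1.55 and 0.458 CPM (-1.74 ± 0.44, adjusted p = 0.0267). Hence both the basal and the suprabasal members were lower, and 4 of 47 squamous genes had a positive log2 change. With the trend removed the squamous median was -1.08, with 28 of 47 members lower at an unadjusted p below 0.05 and 0 past the adjusted threshold. The basal median was -0.36, with 8 of 22 lower, beside 11.9% of all genes lower at an unadjusted p below 0.05. Among luminal genes 8 of 22 fell and 0 rose, beside 8.05% and 11.0% of all genes, with a median of -0.50 that was -0.22 after the trend was removed. They included PSCA, a prostate surface antigen, which fell from 15.5 and 16.1 CPM to 6.07, 8.52 and 4.29 CPM.

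**Figure D3:**
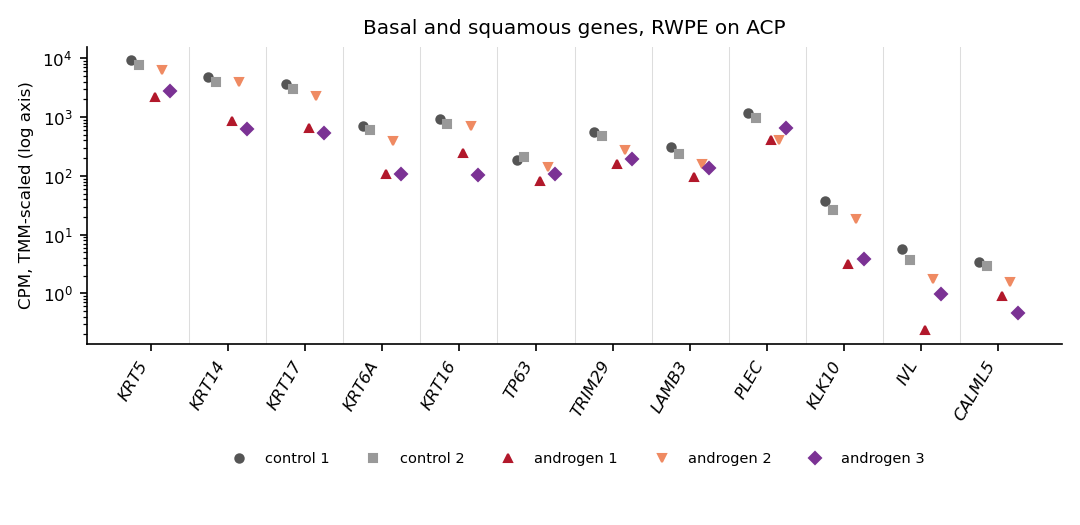
CPM (log axis) of 12 basal and squamous genes in each of the 2 control and 3 androgen libraries. For the keratins androgen library 2 lies next to the controls and libraries 1 and 3 lie below, while TRIM29, LAMB3 and PLEC are low in all 3 androgen libraries.

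Of 22 tested members of the androgen-induced list 1 rose and 1 fell in RWPE, beside 11.0% and 8.05% of all genes. The median log2 change was -0.09, or -0.04 after the trend was removed, and the best-known targets did not pass the test. KLK3, which encodes prostate-specific antigen, was at 7.73 and 5.57 CPM in control medium and 15.8, 7.97 and 6.62 CPM in androgen medium (0.59 ± 0.43, adjusted p = 0.349), so that androgen library 1 was the highest and library 3 lay between the controls. FKBP5, a co-chaperone of steroid receptors that glucocorticoids also induce, was at 736 and 774 CPM against 438, 596 and 743 CPM (-0.35 ± 0.22, adjusted p = 0.272). TMPRSS2, a membrane serine protease, had 34 and 29 reads against 32, 18 and 17 reads, and its log2 change of -0.01 ± 0.69 changed sign under several settings. KLK2, a kallikrein of luminal cells, had 31 and 242 reads in the 2 controls, and its log2 change of -0.38 ± 1.00 became 2.23 without control library 2. The 2 members that passed were CENPN, a centromere protein that rose by 0.63 ± 0.18 and was at 0.16 after the trend was removed, and NDRG1, a stress- and hypoxia-responsive gene that fell from 674 and 595 CPM to 232, 494 and 196 CPM (-1.04 ± 0.33, adjusted p = 0.0482, and -0.96 after the trend was removed).

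Chemokines and inflammatory mediators made up several of the largest rises. CXCL2, a ligand of the neutrophil receptor CXCR2, rose from 1.76 and 1.78 CPM to 12.9, 5.26 and 10.0 CPM (log2 change 2.40 ± 0.42, adjusted p = 0.0170). CXCL3, a ligand of the same receptor, rose from 1.33 and 2.05 CPM to 7.42, 4.48 and 7.71 CPM (1.97 ± 0.35, adjusted p = 0.0170). CCL20, the ligand of CCR6, rose from 1.14 in both controls to 5.42, 3.93 and 6.71 CPM (2.23 ± 0.33, adjusted p = 0.0162). PTGES, the inducible enzyme of prostaglandin E2 synthesis, rose from 51.1 and 52.0 CPM to 293, 77.6 and 359 CPM (2.24 ± 0.54, adjusted p = 0.0234), and here too androgen library 2 was the nearest to the controls. TSLP, an epithelial cytokine, rose evenly from 12.4 and 14.0 CPM to 29.8, 34.04 and 28.2 CPM (1.22 ± 0.17, adjusted p = 0.0147). In the NF-kappaB and cytokine list 5 of 20 tested members rose and 4 fell, beside 11.0% and 8.05% of all genes, with a median of -0.24. Those that fell included CCL5, a chemokine for T cells, from 6.98 and 8.40 CPM to 1.18, 4.04 and 1.04 CPM, and the complement component C3, from 75.6 and 64.4 CPM to 44.6, 49.3 and 41.0 CPM. With the trend removed the median of this list was -0.27, and CXCL2 had a log2 change of 2.06, CCL20 of 1.43 and TSLP of 1.02.

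The other large rises were PCSK1, SMOC1, OSBP2, ZNF239, PDE4D, RSL24D1, PTP4A1 and MIR100HG, with log2 changes between 1.86 and 3.02. PCSK1, a prohormone convertase, was at 1.45 and 1.32 CPM in the controls and 16.4, 3.38 and 14.2 CPM with androgen, and SMOC1, a secreted calcium-binding matrix protein, at 4.88 and 3.52 CPM against 29.4, 5.42 and 55.0 CPM. Both were low in androgen library 2, whereas ZNF239, a zinc finger gene, rose in all 3 androgen libraries, from 4.30 and 3.38 CPM to 19.1, 13.9 and 11.2 CPM. RSL24D1, a factor of the large ribosomal subunit's assembly, rose from 233 and 280 CPM to 1293, 1057 and 507 CPM, the least in androgen library 3. PTP4A1, a small phosphatase of growing cells, rose from 191 and 230 CPM to 827, 406 and 1100 CPM. PDE4D, which breaks down cyclic AMP, rose from 4.33 and 4.75 CPM to 20.7, 7.08 and 23.5 CPM, and OSBP2, an oxysterol-binding protein, from 5.28 and 5.07 CPM to 24.0, 5.87 and 38.2 CPM. In these 3 genes androgen library 2 was again the lowest of the androgen libraries. MIR100HG, a non-coding RNA that hosts microRNAs, rose from 1.82 and 3.33 CPM to 13.1, 6.64 and 8.04 CPM. Among the largest falls outside the interferon genes were CXCL14, H19, GPNMB, KIF26A, ALPP and MYH14. APOL1 and SAMD9L, which interferon is also known to induce but which the list does not hold, were the other 2 of the 12. CXCL14, a chemokine of normal epithelium, fell from 7.66 and 6.39 CPM to 0.589, 1.27 and 1.12 CPM (log2 change -2.80 ± 0.44, adjusted p = 0.0170). The imprinted long non-coding RNA H19 fell from 219 and 167 CPM to 11.0, 69.5 and 17.7 CPM (-2.56 ± 0.58, adjusted p = 0.0204). GPNMB, a lysosomal and melanosomal glycoprotein, fell from 17.1 and 17.6 CPM to 2.47, 4.54 and 3.79 CPM (-2.26 ± 0.25, adjusted p = 0.0147). It was 1 of the 2 genes that passed with the trend removed (-2.40, adjusted p = 0.0237). The other was UPP1, a uridine phosphorylase outside the rule for named genes and named after its value was seen, which rose from 313 and 277 CPM to 745, 766 and 687 CPM (1.31 ± 0.18, and 1.37 with the trend removed). MYH14, a non-muscle myosin heavy chain, fell from 62.6 and 45.0 CPM to 6.89, 19.3 and 14.96 CPM (-1.97 ± 0.34), and KIF26A, a kinesin-like protein, from 13.4 and 7.26 CPM to 1.24, 3.65 and 1.83 CPM (-2.21 ± 0.39). Both have a GC content above 60%, and their values with the trend removed were -1.21 and -1.33. ALPP, placental alkaline phosphatase, fell from 24.04 and 18.95 CPM to 2.24, 10.5 and 2.83 CPM, with reads that could be shared with its close paralogs.

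In the list of EGF receptor ligands, receptors and MAP kinase feedback genes 7 of 32 tested members rose, 2 fell and 23 did not pass the test, beside 11.0% and 8.05% of all genes, with a median log2 change of 0.14. The androgen libraries differed, with median deviations from the controls of -0.09, 0.03 and 0.42 log2 in libraries 1, 2 and 3. The members that rose included 2 ligands. EREG, the ligand epiregulin, rose from 24.04 and 30.7 CPM to 63.5, 47.9 and 75.5 CPM (1.19 ± 0.22, adjusted p = 0.0170). EPGN, the ligand epigen, rose from 5.90 and 6.48 CPM to 24.8, 13.5 and 15.1 CPM (1.52 ± 0.27, adjusted p = 0.0170). DUSP6, a phosphatase that ERK signalling induces and that turns ERK off, rose from 9.64 and 10.9 CPM to 18.8, 21.9 and 31.7 CPM (1.24 ± 0.24, adjusted p = 0.0170). The receptor genes did not rise. EGFR was at 264 and 248 CPM against 131, 129 and 293 CPM (-0.47 ± 0.32, adjusted p = 0.312), and ERBB2 fell (-0.72 ± 0.19, adjusted p = 0.0287, and -0.25 after the trend was removed). With the trend removed 10 of 32 members were higher at an unadjusted p below 0.05, beside 13.4% of all genes, and EREG was at 0.83, EPGN at 1.05 and DUSP6 at 1.18.

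Cell cycle lists split. Among 40 DNA replication genes 9 rose and 2 fell, and among 40 mitosis genes 9 rose and 1 fell, with medians of 0.10 and 0.12. Among all genes 11.0% rose and 8.05% fell. RFC4, a subunit of the clamp loader, rose from 76.6 and 80.0 CPM to 245, 212 and 115 CPM (1.29 ± 0.28, adjusted p = 0.0197), and MAD2L1, a spindle checkpoint protein, from 101 and 107 CPM to 291, 248 and 164 CPM (1.17 ± 0.24, adjusted p = 0.0172). In both, androgen library 3 was the lowest of the 3. CDT1, which licenses replication origins, fell by 0.81 ± 0.22, and UHRF1, which carries DNA methylation through replication, fell by 0.84 ± 0.21; after the trend was removed these were -0.40 and -0.41. The proliferation marker MKI67 was at 318 and 403 CPM in the controls and at 148, 162 and 388 CPM with androgen (-0.63 ± 0.36, adjusted p = 0.222), so that androgen library 3 lay within the controls. With the trend removed the mitosis median became -0.13, and the replication median was 0.10. At an unadjusted p below 0.05, 5 mitosis members were then higher and 7 lower, beside 13.4% and 11.9% of all genes.

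Amino acid supply genes rose in part: of 30 ATF4 and amino acid genes 6 rose and 1 fell, with a median of 0.10. Among all genes 11.0% rose and 8.05% fell. ASNS, asparagine synthetase, rose from 197 and 212 CPM to 504, 443 and 399 CPM (1.14 ± 0.18, adjusted p = 0.0170), and PSPH, the last enzyme of serine synthesis, from 41.4 and 41.6 CPM to 105, 81.2 and 69.1 CPM (1.03 ± 0.20, adjusted p = 0.0170). Values after the trend was removed were 0.81 and 1.02. Cholesterol genes moved both ways, with 4 of 26 rising and 4 falling, beside 11.0% and 8.05% of all genes. Their median was -0.02, or -0.13 after the trend was removed. HMGCS1, an early enzyme of cholesterol synthesis under SREBP2, was at 32.3 and 44.6 CPM against 34.1, 39.8 and 33.9 CPM (-0.10 ± 0.18, adjusted p = 0.729), and this small value changed sign without control library 2. LSS, lanosterol synthase, fell by 0.89 ± 0.16, while IDI1, an isomerase of the same route, rose by 0.89 ± 0.24, and with the trend removed these were -0.48 and 0.56. In fatty acid synthesis 3 of 17 fell, 1 rose and 13 did not pass the test, beside 8.05% and 11.0% of all genes. The list's median was -0.20, or -0.11 after the trend was removed. The 1 that rose was ME1, by 0.77. FASN, the fatty acid synthase, fell from 417 and 347 CPM to 147, 151 and 223 CPM (-1.14 ± 0.21, adjusted p = 0.0170), FADS2, a desaturase, by 1.08 ± 0.18 and SREBF1, which controls both, by 0.84 ± 0.18. Their values after the trend was removed were -0.85, -1.08 and -0.61. Of 9 liver X receptor targets 1 fell and 0 rose, beside 8.05% and 11.0% of all genes. The median of these targets was -0.09, or -0.15 after the trend was removed. The 1 that fell was ABCA1, the cholesterol exporter induced by liver X receptors, from 12.1 and 14.4 CPM to 3.95, 7.64 and 5.42 CPM (-1.22 ± 0.25, adjusted p = 0.0175).

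Of 11 heat shock genes 5 fell, 1 rose and 5 did not pass the test, and the median of -0.43 was -0.40 after the trend was removed. Among all genes 8.05% fell and 11.0% rose, shares that stand beside every list of this paragraph. HSPB1, the small heat shock protein HSP27, fell from 1764 and 1487 CPM to 575, 935 and 366 CPM (-1.38 ± 0.31, adjusted p = 0.0206), and BAG3, a co-chaperone of HSP70, from 192 and 174 CPM to 65.8, 116 and 96.3 CPM (-0.98 ± 0.22, adjusted p = 0.0204). In the mesenchymal and matrix list 7 of 27 fell, 0 rose and 20 did not pass the test, with a median of -0.36 that was -0.34 after the trend was removed. COL5A1, a chain of type V collagen, fell from 18.4 and 18.6 CPM to 5.12, 6.75 and 4.29 CPM (-1.78 ± 0.21, adjusted p = 0.0147), a change that was -0.97 with the trend removed, and MMP14, a membrane collagenase, from 440 and 358 CPM to 160, 222 and 209 CPM (-1.02 ± 0.19, adjusted p = 0.0170). TIMP3, an inhibitor of such proteases, fell by 1.74 ± 0.36. VIM, the intermediate filament of mesenchymal cells, did not pass, at 101 and 93.1 CPM against 100, 103 and 106 CPM (0.09 ± 0.16, adjusted p = 0.730). Of the TGF-beta and BMP response genes 5 of 29 fell and 0 rose, among them the cell cycle inhibitors CDKN1A (-0.95 ± 0.23) and CDKN2B (-0.92 ± 0.16), and the list's median of -0.40 became -0.21 with the trend removed. Targets of serum response factor and YAP had a median of -0.37 that became -0.19, and were lower in 7 of 27 and higher in 1, which was the matrix protein THBS1, from 46.3 and 42.3 CPM to 137, 53.3 and 144 CPM (1.33 ± 0.37, adjusted p = 0.0344). FLNA, a crosslinker of actin, fell from 506 and 400 CPM to 155, 232 and 270 CPM, but its log2 change of -1.05 was -0.24 with the trend removed. Bone and mineral genes were little measured, with 14 of 29 tested, 2 of which fell, and a median of -0.04 that was -0.21 with the trend removed. The alkaline phosphatase ALPL had 46 and 19 reads in the controls and 2, 4 and 1 reads with androgen, and ATP2B4, a plasma membrane calcium pump, fell from 228 and 236 CPM to 82.9, 130 and 130 CPM (-1.02 ± 0.21, adjusted p = 0.0176).

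**Figure D4:**
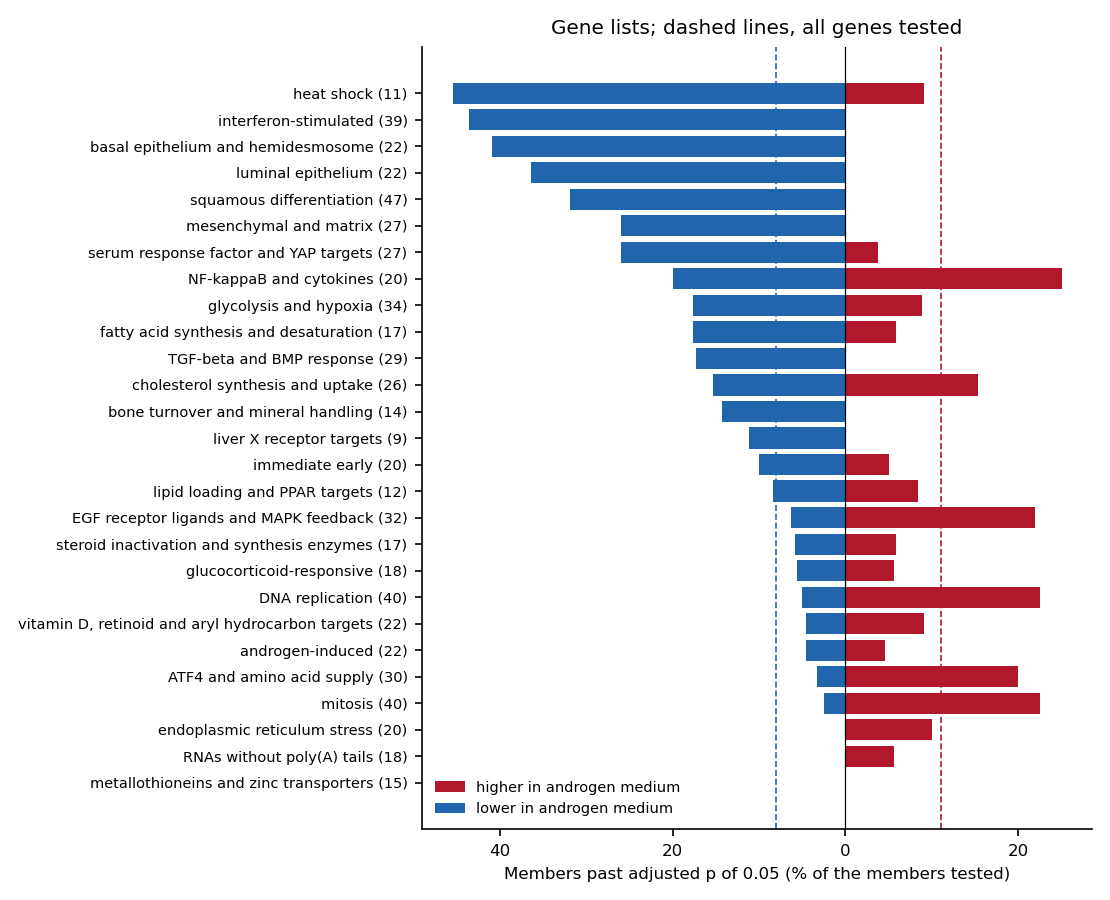
Percent of the tested members of each of 27 gene lists that were higher (red, right) or lower (blue, left) in androgen medium at an adjusted p below 0.05, with the number tested in parentheses. The dashed lines mark all genes tested, 11.0% higher and 8.05% lower. Heat shock, interferon, basal, luminal and squamous lists reach farthest to the left.

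A change from control to androgen medium was also measured on ACP in the cancer lines LNCaP, from a lymph node metastasis, and VCaP, from a vertebral metastasis. Each had 2 control libraries in medium with 10% unstripped serum and 2 androgen libraries. Their control media thus held serum where that of RWPE did not, so line and control medium cannot be told apart, and each line is 1 line. The difference of the 2 changes was tested in 1 fit of all 34 libraries, with CPM scaled over all of them. Below, higher or lower in RWPE by this test refers to the change and not to the level of a gene. It passed the test for 3215 of 17323 genes against LNCaP (18.6%; 1622 higher in RWPE, 9.36%, and 1593 lower, 9.20%) and for 1490 against VCaP (8.60%; 627 higher, 3.62%, and 863 lower, 4.98%). Of 28 androgen-induced genes 8 were lower in RWPE than in LNCaP and 8 lower than in VCaP, and 0 were higher than in either. Within the lines themselves 13 of these genes rose in LNCaP, beside 5.15% of all genes, and 10 in VCaP, beside 7.24%. Without androgen library 1 of LNCaP 4 rose in that line and without its control library 1 it was 8, and without either 5 were lower in RWPE than in LNCaP. KLK3 changed by 4.52 in VCaP, from 84.8 and 102 CPM to 3446 and 840.2 CPM, and by 0.57 in RWPE (difference -3.95 ± 0.73, edgeR adjusted p = 0.0018). FKBP5 changed by 2.32 in VCaP and by -0.37 in RWPE (difference -2.69 ± 0.38, adjusted p = 0.00016). Against LNCaP neither KLK3 (difference 0.23 ± 0.71, adjusted p = 0.91) nor FKBP5 (-0.81 ± 0.38, adjusted p = 0.14, and 0.049 without androgen library 3 of RWPE) passed. Within LNCaP KLK3 (0.34, adjusted p = 0.76), KLK2 (0.84, 0.49), TMPRSS2 (0.35, 0.69) and FKBP5 (0.44, 0.37) did not pass in the same fit. Within VCaP TMPRSS2 rose (1.52, adjusted p = 0.023) and KLK2 did not pass (0.55, adjusted p = 0.64).

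The interferon list differed between RWPE and VCaP in a way that rested on 1 VCaP library. Of 39 members 18 were lower in RWPE than in VCaP by the test of the difference and 0 higher, beside 4.98% and 3.62% of all genes. Within VCaP 14 rose and 0 fell, beside 7.24% of all genes that rose and 5.89% that fell. The 2 VCaP androgen libraries did not move together, with a median deviation of the list from the VCaP controls of -0.17 log2 in library 1 and 1.56 in library 2. Without androgen library 2 of VCaP 1 member rose and 1 fell in that line, and 4 were lower in RWPE. Without control library 2 of VCaP 2 members rose in VCaP, and without androgen library 1 it was 22. MX1 was at 5.45 and 3.20 CPM in the VCaP controls and at 1.30 and 61.3 CPM in its androgen libraries, so that library 1 lay below both controls. Its difference between the lines of -5.04 ± 1.06 (adjusted p = 0.0048) was -0.47 without androgen library 2 of VCaP (adjusted p = 0.77). IFIT1, an RNA-binding antiviral protein that did not pass the test in RWPE, was at 2.07 and 0.907 CPM in the VCaP controls and at 0.866 and 34.6 CPM with androgen. Its difference of -4.11 ± 1.05 (adjusted p = 0.017) turned to 0.22 without that library and lost the call without either VCaP control. The number of members lower in RWPE than in VCaP was also 9 without control library 2 of VCaP, 11 without control library 1 of RWPE and 28 without androgen library 2 of RWPE. Against LNCaP 2 of 39 members were lower in RWPE and 0 higher, beside 9.20% and 9.36% of all genes, so the lower members did not exceed the share of all genes. Without androgen library 2 of RWPE 8 were lower. With the trend removed the counts of members lower in RWPE were 16 against VCaP and 4 against LNCaP, beside 944 and 1286 of all 17323 genes.

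IVL, at low levels throughout, differed from both lines: it was lower with androgen medium in RWPE and higher in LNCaP, from 0.144 to 0.877 CPM, and in VCaP, from 0.251 to 1.39 CPM (differences -4.83 ± 0.98 and -4.73 ± 0.95). HMGCS1 differed from LNCaP (-1.25 ± 0.36), and FASN differed from both (-1.45 ± 0.37 and -1.56 ± 0.37), calls that were lost without control library 1 of RWPE or control library 1 of the other line, and against VCaP also without its androgen library 1. In LNCaP 31 of 40 replication and 36 of 40 mitosis genes fell, beside 4.05% of all genes. In each LNCaP androgen library all 40 genes of either list lay below the mean of the LNCaP controls. By the test of the difference 22 replication and 25 mitosis genes were higher in RWPE than in LNCaP and 0 lower, beside 9.36% and 9.20% of all genes. Against VCaP 6 and 0 were higher, beside 3.62% of all genes. These counts depended on single libraries. Without control library 1 of LNCaP 7 replication and 3 mitosis genes fell in that line and 10 of each list were higher in RWPE, and without its androgen library 1 the numbers were 3 and 0 that fell and 12 and 9 that were higher. Without control library 1 of RWPE 15 and 14 genes were higher than in LNCaP, and without control library 2 it was 14 and 16. The 6 replication genes higher than in VCaP became 0 to 3 without either RWPE control, androgen library 1 or 2 of RWPE, either VCaP control or androgen library 1 of VCaP. CDK1, the mitotic kinase, changed by -1.55 in LNCaP and 0.97 in RWPE (difference 2.52 ± 0.61, adjusted p = 0.006, and 0.052 without androgen library 1 of LNCaP).

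**Figure D5:**
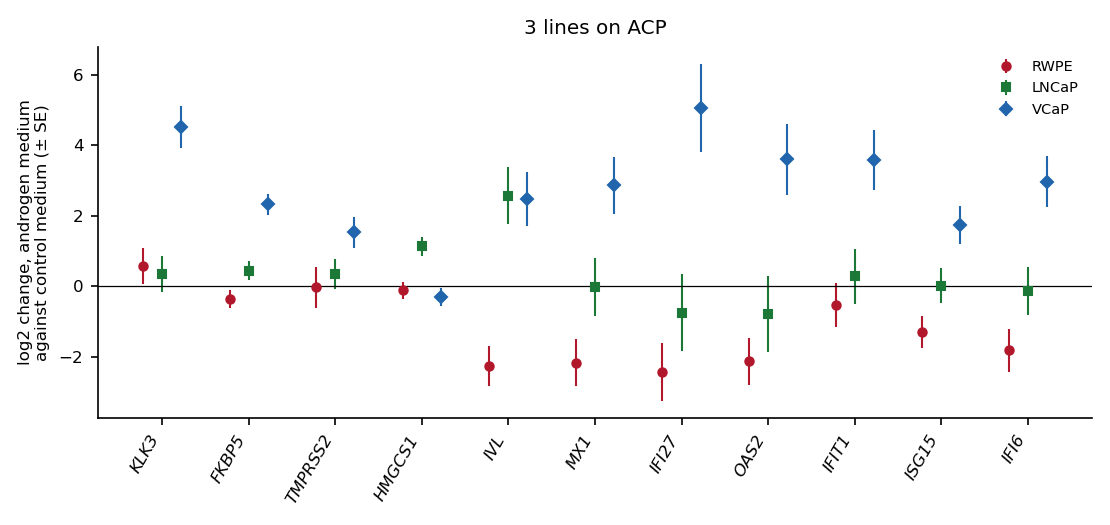
Log2 change, androgen medium against control medium on ACP, for 11 genes in RWPE, LNCaP and VCaP, with bars of 1 SE from the fit of all 34 libraries. RWPE lies below 0 and VCaP above 0 for the interferon genes at the right, where the VCaP values rest on androgen library 2, and IVL is below 0 in RWPE and above 0 in both cancer lines.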

How the data were processed

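RNA from 5 RWPE libraries was compared, 2 in control and 3 in androgen medium, within the 34 libraries of the series. Per the labels' protocols, RNA was column-purified and poly(A) selection preceded library construction. The authors deposited whole-number read counts per gene symbol, not normalized, for 26336 genes. The submitters' processing notes name STAR, HTSeq and build hg19, without versions or roles. The annotation and strand setting were not given in the sources used here, so overlapping or antisense genes may share reads.

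Columns were matched to samples by their labels. Counts were scaled by the trimmed mean of M-values (TMM) and fitted with edgeR 4.0.16 (R 4.3.3) over 7 RWPE libraries in 3 groups, including 2 plastic controls for the spread (4 residual degrees of freedom), with filterByExpr at a minimum count of 10 and Benjamini-Hochberg adjustment at 0.05. Differences between lines came from 1 fit of 34 libraries (17 residual degrees of freedom). SE is the log2 change over the square root of F. GC content and length are medians over GENCODE v29 transcripts of each symbol, with 24474 of 26336 genes matched. Their lowess trends (span 0.3) in each library were removed as offsets in an alternative chosen after seeing the data. The table holds 12 genes with date-like values in the plastic control columns, which were left in. Depth was 15.4 M to 44.8 M counts over the series. The RWPE test was run on simulated data with 200 changed genes. At a simulated log2 change of 1, it recovered 100 of them (50.0%) with 5 false calls among 14048 genes, and at 2 it recovered 183 (91.5%) with 13 false calls among 14060. With a simulated GC trend it made 674 false calls among 14047 genes and 741 among 14043, and 2 and 10 once the trend was removed. Simulated counts varied independently between genes, and the simulated trend was equal in all androgen libraries and absent from the controls. The real controls also differed by GC content, so these rates need not hold for the real data.

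Genes were named by rule: the 12 largest rises and falls past the threshold with at least 5 CPM and groups that did not overlap, up to 4 rises, 4 falls and the 2 highest members of each list, and 16 genes of known role, some of which are not reported here. Between lines the 3 largest differences each way were added. STAT2, IRF9, CMPK2, CXCL11, KRT6A, IFIT1, CDK1 and UPP1 fall outside the rule and were chosen after their values were seen. Members and lists were chosen with earlier results of these data known. Alternatives were RLE scaling, no filter, DESeq2 1.42.0, other sets of libraries, the replicate block, a minimum change, and leaving out each library.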

Additional observations from a re-analysis of the deposited data

Results flagged for a closer look

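All results here compare the change from control to androgen medium on ACP in RWPE with that in LNCaP or VCaP. The control media of LNCaP and VCaP held serum and that of RWPE did not, so line and control medium cannot be told apart. Each difference passed an adjusted p of 0.05 in edgeR's test of the difference itself. That test was passed by 3215 genes against LNCaP and 1490 against VCaP. Higher or lower in RWPE refers here to the change and not to the level. Among genes of known role, the log2 changes of IVL (difference -4.83) and HMGCS1 (-1.25) were lower in RWPE than in LNCaP. Against VCaP the differences were -3.95 for KLK3, -2.69 for FKBP5 and -4.73 for IVL.

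The 3 largest differences in each direction mostly rest on libraries at or near 0 reads, where the fitted value depends on the prior count and is no bound. Against LNCaP, the log2 changes of KLRG2 (difference 5.76), C11orf70 (5.65) and CNTNAP2 (5.49) were higher in RWPE. With the GC and length trend removed C11orf70 did not pass (4.78, adjusted p = 0.051). The level of CNTNAP2 with androgen was 0.093 CPM in RWPE and 5.83 CPM in LNCaP. KLRG2, a lectin-like receptor, was at 0 in both LNCaP androgen libraries and at 8.93 ± 1.44 CPM in RWPE with androgen against 15.9 ± 1.60 in control medium. C11orf70 was likewise at 0 in both LNCaP androgen libraries, and CNTNAP2, a cell adhesion protein of neurons, at 0 in both RWPE controls. The changes of RPL10L (-6.11), NBL1 (-6.27) and DSCAM-AS1 (-6.62) were lower in RWPE. NBL1, a BMP antagonist, fell in RWPE from 16.03 ± 3.25 to 8.03 ± 2.04 CPM and went from 0.0183 to 0.867 CPM in LNCaP. DSCAM-AS1, a long non-coding RNA, reached 179 ± 76.1 CPM in LNCaP with androgen and was at 0.563, 0 and 0 CPM in RWPE with androgen.

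Against VCaP, the log2 changes of NAALAD2 (difference 6.58), DACH1 (5.61) and KCNK15 (5.38) were higher in RWPE, although their levels were lower there. The changes of CST2 (-10.35), LYZ (-10.39) and PRR4 (-15.63) were lower in RWPE. The secretory genes CST2, LYZ and PRR4 had 0 reads in all 3 RWPE androgen libraries, while LYZ, lysozyme, was at 118 ± 51.4 CPM and PRR4 at 42.2 ± 10.7 CPM in VCaP with androgen. NAALAD2, a glutamate carboxypeptidase, went from 148 ± 62.7 to 6.37 ± 2.64 CPM in VCaP and stayed below 1 CPM in RWPE.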

How the results depend on the processing

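The count of 2730 changed genes was within 1.5 times of itself with RLE scaling, no filter, DESeq2, all 34 libraries and without date-like genes, from 2754 to 3682. It was 1402 with only the 5 libraries, 849 at an absolute log2 change of at least 1, and 5741 with the replicate block. The deviations of same-numbered control and androgen libraries from their group means had r = -0.21 and -0.18. The 2 controls mirror each other around their mean, so these values cannot tell whether the numbers pair libraries. With the GC and length trend removed the count of changed genes was 2, and 3940 with the replicate block as well. Leaving out 1 library gave 0 to 6102 calls, and with the trend removed 0 without either control, 10, 720 and 4330 without androgen library 1, 2 and 3. Of the 2730 calls, 2681 kept their sign and 1864 had an unadjusted p below 0.05 with the trend removed. With the trend left in, leaving out androgen library 1 or either control reduced the count most, and leaving out androgen library 3 raised it. The cause was not tested. Of the 98 named genes called, 96 lost the call with the trend removed, 24 with all 34 libraries, 16 with 5 libraries and 5 with DESeq2, and all 98 without either control. The difference from LNCaP gave 1222 to 4218 genes as 1 library was left out, falling by over 1.5 times without control library 1 of RWPE or library 1 of either LNCaP group. That from VCaP gave 506 to 2221, falling so without either control or androgen library 1 of RWPE, or either control or androgen library 1 of VCaP. The other settings kept both within 1.5 times. With a control left out, 1 library stands for its group and is assumed to vary like the others.

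Signs changed for 5 genes. TMPRSS2 was 0.0025 with DESeq2, 0.35 with the replicate block, 0.081 with the trend removed and 0.44 with both, and from -0.48 to 0.28 as 1 library was left out. B2M was -0.33 with the trend removed and -0.23 with the block as well, and CXCL11 was 0.30 with the replicate block. Ranges as 1 library was left out were -1.32 to 2.23 for KLK2, -0.71 to 0.35 for CXCL11 and -0.35 to 0.15 for HMGCS1. KLK2 reached its highest value without control library 2. Few reads limit TMPRSS2 and ALPL. As 1 library was left out, the difference of KLK3 from LNCaP ran from -0.25 without androgen library 1 of RWPE to 0.50, and was -0.10 without control library 2 of LNCaP. That of IFIT1 from VCaP ran from -5.07 to 0.22, the highest without androgen library 2 of VCaP.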

Other observations

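Genes of the translation and respiration machinery were higher in androgen medium in RWPE. These classes were formed by gene symbol after the data were seen, so their counts are a description. Of 80 cytosolic ribosomal protein genes 26 rose and 0 fell, with a median log2 change of 0.59, and of 80 mitochondrial ribosomal protein genes 35 rose and 0 fell, with a median of 0.62. Of 47 NADH dehydrogenase genes, which encode complex I of the respiratory chain, 18 rose and 0 fell (median 0.63), and of 41 proteasome subunit genes 11 rose and 0 fell (median 0.37). Among all genes 11.0% rose. Their transcripts are short, with median lengths of 689 to 1085 bases beside 1797 for all tested genes, and with the GC and length trend removed the medians were 0.40, 0.42, 0.38 and 0.17. They differed over the libraries: the cytosolic ribosomal median was 0.81 and 0.65 above the controls in androgen libraries 1 and 2 and 0.23 in library 3. The part of transcript length in these values was not tested beyond that removal. Collagen chain genes, with a median length of 4160 bases and GC content of 61.0%, fell in 7 of 26 and rose in 0 (median -0.66, and -0.26 with the trend removed).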
